A study of Mus musculus with 12 samples.

Results

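The TRAV6 family is a group of V gene segments of the mouse T cell receptor (TCR) alpha chain. Its members were all productive TRA clonotypes (in frame, without a stop codon) whose best-scoring V segment carried a TRAV6 name, and near-identical D and N copies were merged into subgroups by their number. By this rule 14 of 103 V segments in the alpha and delta chain tables belonged to the family, in 7 subgroups, TRAV6-1 to TRAV6-7. They held 57263 of 341219 productive TRA reads (16.8%) and 32162 of 163279 clonotype rows (19.7%). RefSeq annotates 15 TRAV6 copies, and TRAV6D-6 was never the first hit because it tied with TRAV6-6.

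The libraries came from thymocytes of mice lacking Chrna9 (KO, Chrna9-/-), which encodes the nicotinic acetylcholine receptor subunit alpha 9, and of wild-type (WT) mice. Cells were sorted by CD4 and CD8 alone into CD4 single-positive (CD4SP, 1000000 cells per sample) and CD8 single-positive (CD8SP, 330000 cells per sample) thymocytes. The 4 groups, KO CD4SP, WT CD4SP, KO CD8SP and WT CD8SP, held 3 libraries each from 6 mice, in 2 pairs of males and 1 pair of females. The title names negative selection, by which thymocytes whose receptors bind self too strongly are lost. Strain and age are not given in the sources used here, and Chrna9 itself is not read in a TCR library, so the deletion was not checked.

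A TCR alpha chain is made when a TRAV segment is joined to one of many TRAJ segments in immature thymocytes. Joining starts with the V segments nearest to the J cluster and its nearest J segments, and can be repeated with ones farther out. The loops CDR1 and CDR2 are encoded in the V segment and lie mostly over the MHC molecule, while CDR3 spans the V-J join and lies mostly over the bound peptide. CD4SP thymocytes have been selected on MHC class II and CD8SP thymocytes on MHC class I. The mouse TRAV cluster carries internal duplications, which is why most TRAV6 subgroups have copies marked D or N.

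Each library held 19847 to 33885 productive TRA reads in 10892 to 15509 clonotypes. Invariant natural killer T (NKT) cells, whose alpha chain joins TRAV11 to TRAJ18, are among the other cells that a CD4 and CD8 gate lets through. That chain made up 6.71% ± 1.09 of CD4SP reads and 0.0654% ± 0.0181 of CD8SP reads (SD, n = 6), with 7.39% ± 1.06 in KO CD4SP and 6.03% ± 0.677 in WT CD4SP libraries (n = 3). The TRAV1-TRAJ33 chain of mucosal-associated invariant T cells was at 0.0236% of CD4SP and 0.0337% of CD8SP reads, and delta chains were at 0.710% to 1.22% of productive TRA and TRD reads. Immature single-positive and double-positive cells have no TCR marker and were not counted. Nothing in the labels says whether same-numbered CD4SP and CD8SP libraries share a mouse; this was assumed from the number.

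The CDR1 sequences are shown because most subgroups differ in this loop, which the V segment fixes. Each sequence is the one most clonotypes of the copy carried, read 5′ to 3′, and capitals mark bases that differ from TRAV6-2. All lie on chromosome 14 of mm10, with start and end from RefSeq's GRCm38 annotation.
TRAV6-2 (52667411 to 52667864): accacagggtacccgact
TRAV6-1 (52638515 to 52638962): accacaTggtacccgact
TRAV6-3 (53428761 to 53430377): accacagggtacccgact
TRAV6-4 (53454327 to 53454784): accacaACAtacccAact
TRAV6D-4 (52753398 to 52753846): accacaACgtacccAact
TRAV6-5 (53491152 to 53491622): accaAaCAgtacccAacC
TRAV6D-7 (53007632 to 53008098): GccTcagggtacccAGct
TRAV6-7-DV9 (53709943 to 53710419): GccTcagggtacccAacC
TRAV6-2 and TRAV6-3 shared one CDR1. TRAV6-1 differed from them by the base change G7T, counted from the first base of CDR1, which is the residue change G3W at the third CDR1 residue. Both copies of TRAV6-4 carried G3T, and the 3 copies of TRAV6-5 carried T2K and G3Q. In TRAV6-7 the changes T1A and T2S were shared by the copies with reads, and TRAV6D-7 and TRAV6N-7 had T6A in addition. TRAV6-7-DV9 can also be joined in delta chains, but 0 productive TRAV6 rows had a TRDJ segment.

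The TRAV6-6 copies had a longer CDR1 than the other subgroups and are shown apart, with the capital marking the base that differs between them.
TRAV6-6 (53516929 to 53517366): gccacaagcatagcttaccctaat
TRAV6N-6 (53132700 to 53133137): gccacaagcatagGttaccctaat
This base (C14G) is the residue change A5G. The copies had the same CDR2, differed by 1 residue (T14A, counted from the first residue of framework 3) between CDR2 and CDR3, and began CDR3 with tgtgctctgggtga in TRAV6-6 and tgCgctctgAgtga in TRAV6N-6, where capitals again mark the differences.

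Seen as a whole, the family took nearly the same part of the repertoire in every group. It made up 16.5%, 15.7% and 15.9% of productive TRA reads in the KO CD4SP libraries and 17.1%, 16.1% and 15.9% in the WT CD4SP libraries. In CD8SP it made up 16.5%, 17.2% and 16.8% in KO and 17.6%, 17.8% and 17.7% in WT libraries. The 95% exact binomial interval of one library was 0.401 to 0.512 percentage points to each side. It covers the counting error of reads only. The files hold no molecule counts, so error from the number of molecules or cells is not in it. The order of the group means was WT CD8SP (17.7% ± 0.130), KO CD8SP (16.9% ± 0.361), WT CD4SP (16.3% ± 0.623) and KO CD4SP (16.03% ± 0.397, SD, n = 3 each). Only the first 2 of these neighbours had ranges that did not overlap, and that genotype difference did not pass its test (below 0.05 after adjustment). Reads come from RNA of many cells, so fewer cells with a receptor and less receptor RNA per cell cannot be told apart.

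Between cell types the family's share was lower in CD4SP (16.2% ± 0.499) than in CD8SP (17.3% ± 0.508) in 6 of 6 mice, by a small step. The log2 fold change was -0.09 (SE 0.0306), with an adjusted p of 0.00386 in edgeR's quasi-likelihood test with the mouse as a block. Of the 20 TRAV families tested, 85% passed in this comparison (7 higher and 10 lower in CD4SP), with a median absolute log2 fold change of 0.692 over the other 19, and 1 of those 19 lay nearer to 0 than TRAV6. The direction depended on what the share was taken of. The invariant NKT chain adds to the CD4SP total, and with it left out TRAV6 stood at 17.3% ± 0.400 of CD4SP and 17.3% ± 0.508 of CD8SP reads (log2 fold change 0.005, adjusted p = 0.904 in edgeR). With TMM scaling the value was 0.07 (adjusted p = 0.0305) and with DESeq2 0.17 (1.09e-08), both turned round.

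Beneath this even total the subgroups moved apart. Of 7 TRAV6 subgroups 5 passed edgeR's test between CD4SP and CD8SP, 2 higher (TRAV6-4 and TRAV6-5) and 3 lower (TRAV6-1, TRAV6-3 and TRAV6-6), against 82.2% of all 45 TRAV subgroups, 35.6% higher and 46.7% lower. The share called was thus near the background. The median log2 fold change was -0.08 over the TRAV6 subgroups and -0.26 over all subgroups tested.

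TRAV6-1, the copy farthest from the J cluster, had the largest change. It made up 0.483%, 0.481% and 0.501% of reads in KO CD4SP and 0.461%, 0.492% and 0.484% in WT CD4SP libraries, against 0.874%, 0.910% and 1.04% in KO CD8SP and 0.906%, 1.09% and 1.08% in WT CD8SP libraries. All CD4SP libraries lay below all CD8SP libraries, at about one level each. The log2 fold change was -1.01 (SE 0.0828, adjusted p = 1.16e-12 in edgeR).

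TRAV6-4 ran the other way, with 1.03%, 0.887% and 0.938% in KO CD4SP and 0.983%, 1.13% and 1.09% in WT CD4SP libraries, against 0.505%, 0.529% and 0.465% in KO CD8SP and 0.573%, 0.587% and 0.686% in WT CD8SP libraries. No CD8SP library reached the lowest CD4SP library. Its log2 fold change was 0.86 (SE 0.0815, adjusted p = 3.13e-11 in edgeR).

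TRAV6-5 made up 3.84%, 3.96% and 3.82% in KO CD4SP and 4.15%, 4.19% and 3.92% in WT CD4SP libraries, against 2.68%, 2.85% and 2.60% in KO CD8SP and 2.84%, 2.54% and 2.84% in WT CD8SP libraries. Its libraries were again split by cell type without overlap (log2 fold change 0.55, SE 0.0495, edgeR adjusted p = 1.38e-11).

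TRAV6-6, the most used subgroup, made up 4.77%, 4.43% and 4.86% in KO CD4SP and 5.13%, 4.14% and 4.64% in WT CD4SP libraries, against 6.01%, 6.54% and 6.28% in KO CD8SP and 6.23%, 6.41% and 6.32% in WT CD8SP libraries. The CD4SP libraries were lower throughout and more spread than the CD8SP libraries (log2 fold change -0.44, SE 0.0463, edgeR adjusted p = 3.47e-10). TRAV6-3 was at 1.14% to 1.45% in CD4SP, with a median of 1.31%, and at 1.47% to 2.05% in CD8SP, with a median of 1.71%. Its highest CD4SP library stood just under its lowest CD8SP library (log2 fold change -0.43, SE 0.0742, edgeR adjusted p = 4.18e-06).

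TRAV6-2 and TRAV6-7 did not pass. TRAV6-2 was at 0.627% to 0.845% (median 0.714%) in CD4SP and at 0.624% to 0.765% (median 0.699%) in CD8SP, with a log2 fold change of 0.07 (edgeR adjusted p = 0.445, 95% interval -0.10 to 0.23). TRAV6-7 was at 3.7997% to 4.44% (median 3.95%) in CD4SP and at 3.73% to 4.77% (median 4.23%) in CD8SP, at -0.08 (adjusted p = 0.134, 95% interval -0.18 to 0.02). Both overlapped between cell types, higher in CD4SP in 3 and 2 of 6 mice. TRAV6-2 passed with DESeq2 (0.26, adjusted p = 0.0225) and, turned round, without clonotypes of 1 read (-0.38, edgeR adjusted p = 0.0237).

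**Figure D1:**
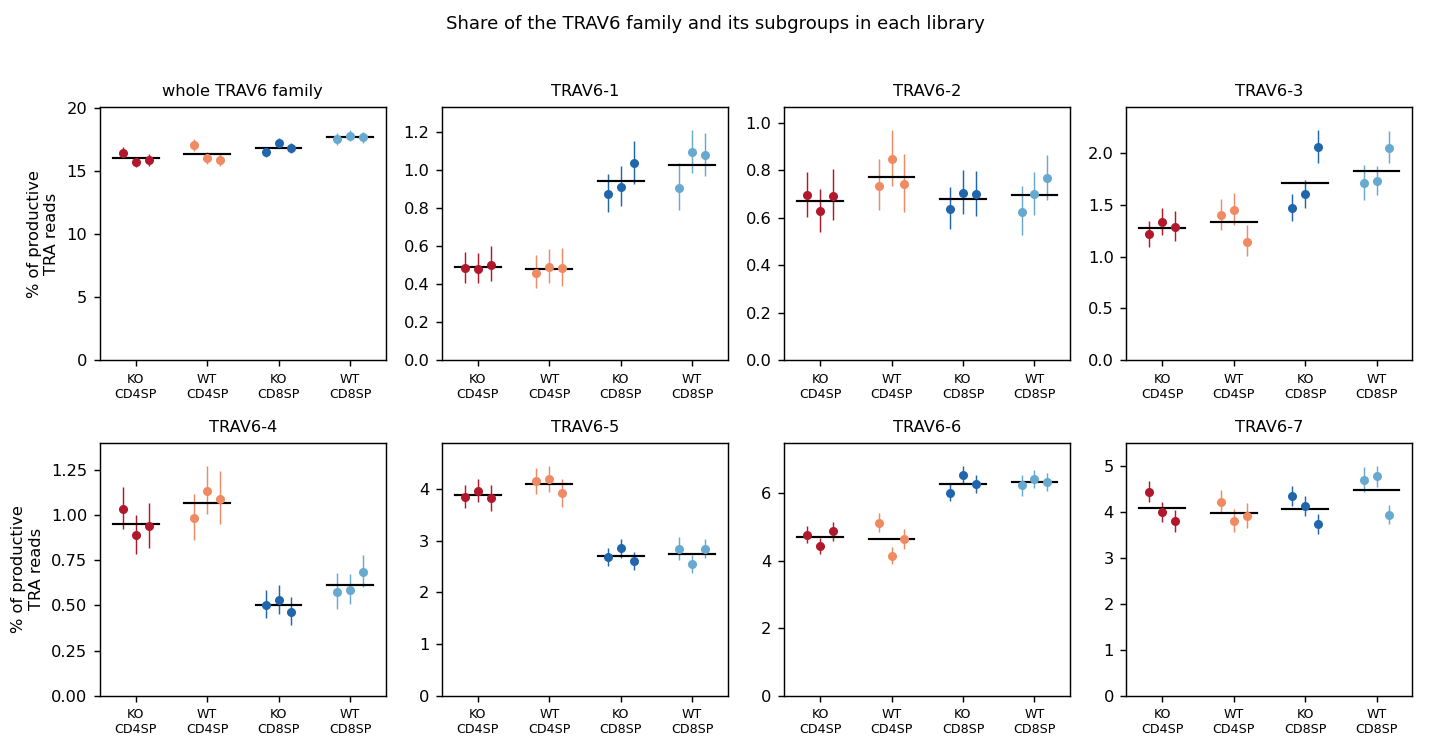
Share of productive TRA reads (y axis, percent, each panel on its own scale from 0) of the TRAV6 family and its 7 subgroups in the 4 groups (x axis). Points are libraries with 95% exact binomial intervals and black lines are group means; TRAV6-1, TRAV6-3 and TRAV6-6 sit lower and TRAV6-4 and TRAV6-5 higher in all CD4SP libraries, while the family panel is nearly flat.

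The same 5 subgroups differed as shares of the family's own reads, a measure that the other TRAV reads of a library do not enter. TRAV6-5 was 24.6% ± 0.965 of TRAV6 reads in CD4SP and 15.8% ± 0.827 in CD8SP, while TRAV6-6 was 28.8% ± 1.70 in CD4SP and 36.4% ± 0.954 in CD8SP (SD, n = 6). TRAV6-4 was 6.25% ± 0.587 in CD4SP against 3.22% ± 0.377 in CD8SP. TRAV6-1 stood at 2.99% ± 0.158 in CD4SP and 5.68% ± 0.484 in CD8SP, and TRAV6-3 at 8.06% ± 0.692 in CD4SP and 10.2% ± 1.34 in CD8SP. Each of these 5 moved one way in 6 of 6 mice, and the exact permutation test (two-sided, turning the sign of each mouse's difference) gave 0.03125, the smallest p that 6 mice allow, and 0.0437 after adjustment over the 7 subgroups. TRAV6-2 (exact p = 0.0625) and TRAV6-7 (exact p = 0.844) did not pass by this measure. With each clonotype counted once, TRAV6-3 no longer passed (9.92% in CD4SP and 12.01% in CD8SP, lower in 5 of 6 mice, exact p = 0.0625, adjusted 0.0729). TRAV6-2 then passed instead (5.57% in CD4SP and 4.78% in CD8SP, higher in 6 of 6 mice, exact p = 0.03125, adjusted 0.0437).

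Subgroups of near-identical sequence could differ in their preference for a cell type. TRAV6-1 and TRAV6-2 differ by 1 residue in CDR1 (G3W), by none in CDR2 and by 1 in framework 3 (S2I, counted from its first residue, from TRAV6-2 to TRAV6-1). Their log2 ratios of CD4SP over CD8SP were -1.02 and 0.07, a difference of -1.08 ± 0.225 (SD over 6 mice, lower for TRAV6-1 in 6 of 6). Its exact permutation p was 0.03125, or 0.0365 after adjustment over all 21 pairs of subgroups. In all, 18 of these 21 pairs differed at that value. The exceptions were TRAV6-3 and TRAV6-6 (difference 0.006, exact p = 1), TRAV6-2 and TRAV6-7 (0.15, exact p = 0.375) and TRAV6-3 and TRAV6-7 (-0.35, exact p = 0.0625). TRAV6-2 and TRAV6-3, which share their CDR1, differed by 0.50 ± 0.237, and they have 2 residue changes in framework 3 (A22T and S27I) and a different start of CDR3.

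The copies inside a subgroup mostly kept the subgroup's direction. They are uncertain values, because 29.0% of TRAV6 reads matched more than 1 copy of a subgroup equally well and went to the first hit, while 0% were tied between subgroups. Of 13 copies tested, 10 passed between CD4SP and CD8SP, 5 in each direction, against 74.4% of all 82 TRAV segments in edgeR's test (32.9% higher, 41.5% lower). TRAV6D-4 and TRAV6-4 had log2 fold changes of 0.97 and 0.77, TRAV6D-5, TRAV6-5 and TRAV6N-5 of 0.72, 0.55 and 0.43, and TRAV6D-3 and TRAV6-3 of -0.54 and -0.38. TRAV6N-7 had 23 reads in all and was not tested. Its CDR1, CDR2, framework 3 and start of CDR3 were the same as those of TRAV6D-7. Its reads can therefore have been counted as TRAV6D-7, and its use is not known.

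TRAV6N-6 and TRAV6-6 stood farthest apart among the copies of a subgroup, where reads tied between TRAV6-6 and TRAV6D-6 count as TRAV6-6. TRAV6N-6 was at 0.806% ± 0.107 of CD4SP and 1.46% ± 0.0926 of CD8SP reads (log2 fold change -0.86, SE 0.0738, edgeR adjusted p = 4.28e-11), and TRAV6-6 was at 3.85% ± 0.318 and 4.83% ± 0.139 in the same cells (-0.33, SE 0.0490, edgeR adjusted p = 8.07e-07). The difference between their log2 ratios was 0.54 ± 0.208, in one direction in 6 of 6 mice (exact permutation p = 0.03125), but it did not pass after adjustment over the 7 pairs of copies (0.219). None of the other 6 pairs of copies passed either.

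KO and WT libraries were compared to see whether receptor use differed without Chrna9. For the TRAV6 family no difference passed edgeR's test. The log2 fold change of KO over WT was -0.03 in CD4SP (SE 0.0368, adjusted p = 0.865, 95% interval -0.10 to 0.04) and -0.07 in CD8SP (SE 0.0363, adjusted p = 0.414, 95% interval -0.14 to 0.003), and 0 of 3 pairs were higher in KO in either cell type. The invariant NKT chain was more frequent in KO than in WT CD4SP libraries (values above), and without it the family stood at 17.3% ± 0.328 in KO and 17.4% ± 0.535 in WT CD4SP libraries. Of all 20 families, 5% passed in CD4SP and 0% in CD8SP. The test of whether the genotype effect differed between the cell types gave 0.04 (SE 0.0578, edgeR adjusted p = 0.934), with 0% of families called.

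Among the subgroups, 0 of 7 passed between KO and WT in CD4SP and 0 of 7 in CD8SP, against 2.22% and 0% of all subgroups. At an unadjusted p under 0.05 edgeR had 0 TRAV6 subgroups in CD4SP and 2 in CD8SP, and DESeq2 had 0 in both. The 2 were TRAV6-4 (-0.30, SE 0.139, adjusted p = 0.330) and TRAV6-7 (-0.14, SE 0.0659, adjusted p = 0.342). For TRAV6-4 the KO CD8SP libraries lay below all WT CD8SP libraries, as the values above show, with a 95% interval of the log2 fold change of -0.58 to -0.03. Counting each clonotype once brought it to -0.10 (edgeR adjusted p = 0.786). In CD4SP the KO libraries of TRAV6-2 likewise lay below all WT libraries (log2 fold change -0.21, edgeR adjusted p = 0.861). An exact test of 3 libraries against 3 cannot go below 0.1, and such splits were not counted over all TRAV subgroups. The 95% intervals of the other subgroups ran from -0.48 to 0.33 in CD4SP and from -0.37 to 0.22 in CD8SP (TRAV6-1, -2, -3, -5 and -6). The interaction test called 0 of 7 subgroups (0% of all), with 0 at an unadjusted p under 0.05 in edgeR and in DESeq2. Of 13 copies, 0 passed in either cell type, where 1.22% (CD4SP) and 0% (CD8SP) of all segments did, and 0 had an unadjusted p under 0.05 in edgeR or DESeq2.

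Nonproductive joins, which make no receptor and so are not selected themselves, were examined in the same libraries. TRAV6 made up 25.1% ± 1.13 of nonproductive TRA reads in CD4SP and 27.0% ± 0.844 in CD8SP (SD, n = 6), higher than its share of productive reads in all 12 libraries. These were 7404 reads, 444 to 782 per library, and 98.9% of them were out of frame. TRAV6-5 alone gave 48.6% of them. It was the most frequent of 50 TRAV subgroups among nonproductive reads, at 12.4% ± 0.718 in CD4SP and 13.0% ± 1.09 in CD8SP, and the 12th among productive reads. TRAV6-6 and TRAV6-7 were the reverse, with a higher productive than nonproductive share in 6 of 6 libraries of each cell type.

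The ratio of CD4SP over CD8SP was then set side by side for the 2 kinds of read. TRAV6-1 had a log2 ratio of CD4SP over CD8SP of -1.01 ± 0.121 in productive and -0.04 ± 0.339 in nonproductive reads, and TRAV6-5 of 0.55 ± 0.0930 in productive and -0.07 ± 0.153 in nonproductive reads (SD, n = 6). TRAV6-4 had 0.86 ± 0.154 in productive and -0.02 ± 0.521 in nonproductive reads, which here were only 95 in CD4SP and 120 in CD8SP. TRAV6-3 had -0.43 ± 0.256 in productive and 0.06 ± 0.211 in nonproductive reads. For each of these 4 the difference between the kinds of read had one direction in 6 of 6 mice (exact sign-flip permutation p = 0.03125), but adjusted over the 7 subgroups it was 0.0547 and did not pass. TRAV6-6 was at -0.44 ± 0.136 in productive and -0.34 ± 0.237 in nonproductive reads (exact p = 0.312 for the difference), lower in CD4SP in 6 of 6 mice in both kinds of read. No subgroup passed between CD4SP and CD8SP in nonproductive reads alone after adjustment, TRAV6-6 being nearest (3.70% ± 0.346 in CD4SP, 4.71% ± 0.574 in CD8SP, exact p = 0.03125, adjusted 0.219).

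**Figure D2:**
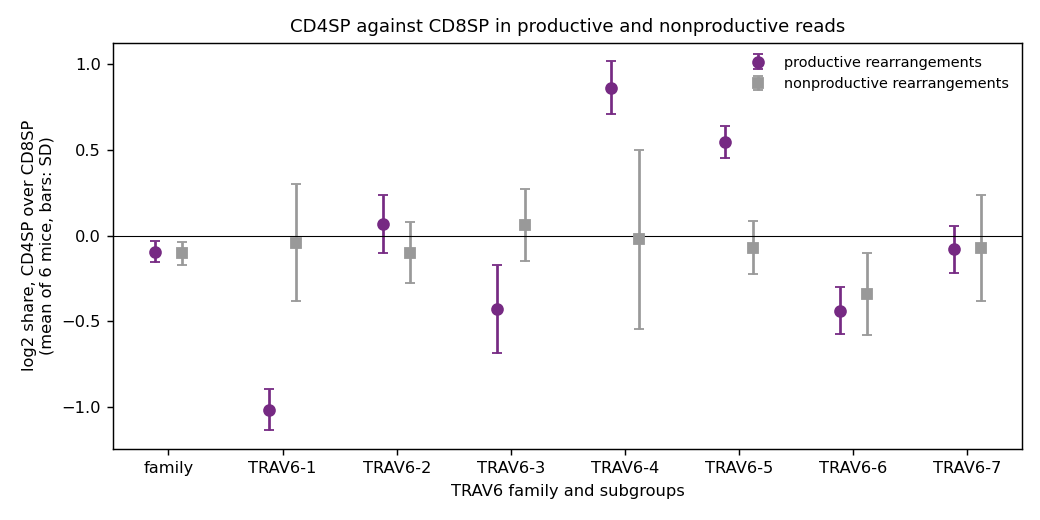
Log2 share of CD4SP over CD8SP (y axis) of the TRAV6 family and each subgroup (x axis) in productive (circles) and nonproductive (squares) reads, as means of 6 mice with SD bars. TRAV6-1 at -1.01 and TRAV6-4 at 0.86 in productive reads lie near 0 in nonproductive reads, while TRAV6-6 lies below 0 in both.

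Where a copy sits in the locus went with the J segments it was joined to. The copies span 445 to 1516 kb before the first TRAJ segment (TRAJ61), and the 60 TRAJ segments span 63.8 kb. TRAV6-7-DV9, the nearest at 445 kb, was joined to J segments at a mean of 20.6 ± 0.634 kb from the first TRAJ segment in CD4SP and 21.8 ± 0.518 kb in CD8SP (SD, n = 6), and 3.82% of its reads used TRAJ1 to TRAJ21, the far end of the cluster. TRAV6-6, at 638 kb, was at 35.0 ± 0.417 kb in CD4SP and 35.0 ± 0.414 kb in CD8SP, with 23.5% at the far end. TRAV6N-6, of nearly the same sequence but 1022 kb away, was at 43.6 ± 1.098 kb in CD4SP and 43.9 ± 1.02 kb in CD8SP, with 54.3% at the far end. TRAV6N-5 (43.2 and 43.0 kb) stood likewise apart from TRAV6-5 (35.9 and 36.6 kb), and TRAV6D-7 (41.4 and 41.6 kb) from TRAV6-7-DV9. Tied reads were placed at the first hit, so the value of TRAV6-6 can include reads of TRAV6D-6 from another position. That of TRAV6D-7 can include reads of TRAV6N-7, which lies at 836 kb.

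The relation was not a straight line. The 8 copies from TRAV6N-6 outward lay between 37.1 and 43.9 kb, and TRAV6-1, the farthest, was at 42.0 kb in CD4SP and 40.9 kb in CD8SP. Over the 13 copies with enough reads, Pearson's r between the distance of the copy and the mean J position was 0.632 in CD4SP and 0.564 in CD8SP (Spearman's rho 0.621 and 0.451). These are descriptions across segments that share the same libraries, with tied reads placed at the first hit.

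**Figure D3:**
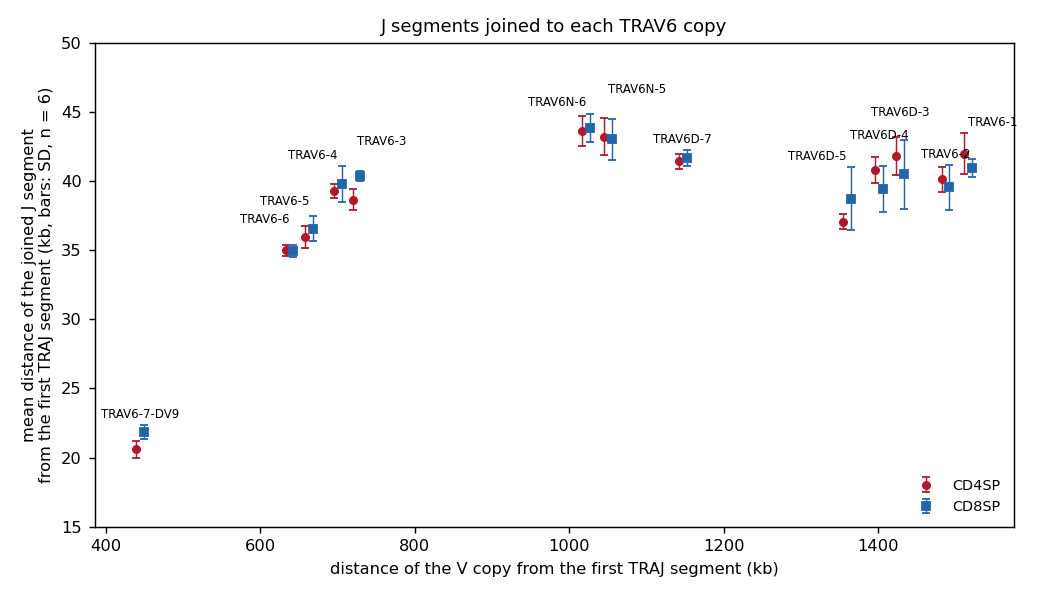
Mean distance of the joined J segment from the first TRAJ segment (y axis, kb, SD over 6 libraries) against the distance of each TRAV6 copy from it (x axis, kb), in CD4SP (circles) and CD8SP (squares). TRAV6-7-DV9 lies lowest at 20.6 and 21.8 kb, the copies near 638 kb are at about 35 kb, and TRAV6N-6 is highest at 43.6 and 43.9 kb. Reads tied between copies are placed at the first hit.

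The J partners of the family also differed by cell type. Of 43 TRAJ segments tested with TRAV6, 27 passed in edgeR, 11 higher and 16 lower in CD4SP, against 60.6% of all 454 pairs of a TRAV family and a TRAJ segment (24.9% higher, 35.7% lower). TRAJ31, the most used partner in CD4SP, was 8.28% to 9.51% of TRAV6 reads in CD4SP and 4.82% to 6.05% in CD8SP (log2 fold change of its share of TRA reads 0.64, SE 0.0818, adjusted p = 9.34e-14 in edgeR). TRAJ30 was 3.52% to 4.99% in CD4SP and 6.35% to 7.54% in CD8SP (-0.75, SE 0.0875, edgeR adjusted p = 2.28e-16). Neither overlapped between the cell types. Among the other TRAV reads TRAJ31 was at 6.59% in CD4SP and 4.63% in CD8SP, and TRAJ30 at 2.84% and 5.78%, in the same directions.

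Among partners that passed, the lowest in CD4SP were TRAJ45 (-1.41), TRAJ38 (-1.38), TRAJ2 (-1.22), TRAJ47 (-1.14) and TRAJ24 (-0.88). TRAJ45, for example, was 0.619% ± 0.0997 of TRAV6 reads in CD4SP and 1.56% ± 0.259 in CD8SP, and 0.655% of CD4SP and 1.964% of CD8SP reads of all other TRAV segments. The highest were TRAJ58 (0.86), TRAJ57 (0.69), TRAJ34 (0.68), TRAJ31 and TRAJ6 (0.58). TRAJ58 and TRAJ57 overlapped between the cell types, and TRAJ58 did not pass without WT replicate 1, KO replicate 1 or WT replicate 2 (edgeR adjusted p up to 0.102), nor TRAJ57 without WT replicate 3 (0.0940). TRAJ34 was 4.15% ± 0.180 of TRAV6 reads in CD4SP and 2.43% ± 0.148 in CD8SP, while for the other TRAV segments it was 2.68% and 2.53%. Of the other most used partners, TRAJ22 (6.48% ± 0.483 of TRAV6 reads in CD4SP, 7.89% ± 0.757 in CD8SP, edgeR adjusted p = 1.31e-05) and TRAJ12 (4.58% ± 0.481 and 5.30% ± 0.334, adjusted p = 0.00196) were lower in CD4SP, but TRAJ12 did not pass with TMM scaling (0.163) or DESeq2 (0.428), nor TRAJ22 with DESeq2 (0.155). TRAJ23 was at 6.77% ± 0.394 in CD4SP and 5.94% ± 0.706 in CD8SP and did not pass (adjusted p = 0.311). Between KO and WT, 0 of 43 partners passed in either cell type, where 0% (CD4SP) and 0.22% (CD8SP) of all pairs did. At an unadjusted p under 0.05 edgeR had 2 in CD4SP and 3 in CD8SP, and DESeq2 1 in each.

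**Figure D4:**
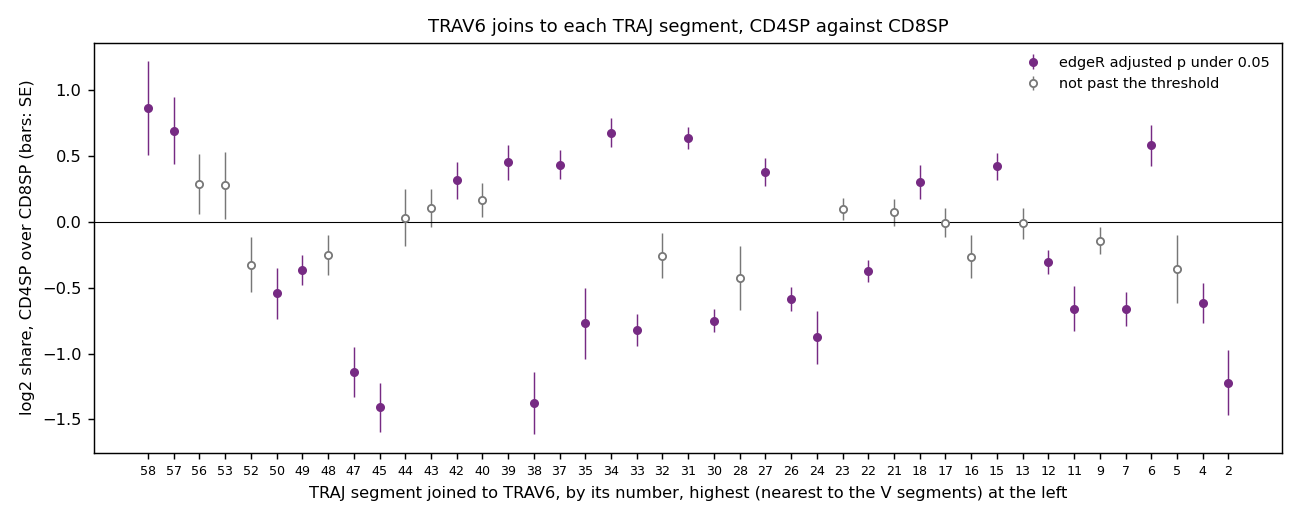
Log2 fold change of CD4SP over CD8SP (y axis, SE bars) of the share of TRA reads in which TRAV6 was joined to each of 43 TRAJ segments (x axis). Filled points passed edgeR's test, 11 above and 16 below 0, and they alternate along the cluster rather than lying at one end.

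The CDR3 loops of TRAV6 receptors differed between the cell types in make-up and in read number. Acidic residues were 4.29% ± 0.10 of the residues between the first and the last of the CDR3 in CD4SP and 6.40% ± 0.144 in CD8SP, with library ranges of 4.16% to 4.40% and 6.27% to 6.65%. Basic residues (lysine and arginine) were 9.07% ± 0.0918 in CD4SP and 8.19% ± 0.0711 in CD8SP. The mean CDR3 was 13.5 ± 0.0266 residues long in CD4SP and 13.7 ± 0.0115 in CD8SP. None of these 3 measures overlapped between the cell types. They pool all subgroups and J partners of the family, whose shares themselves differed between the cell types. How much of the difference in make-up comes with those shares was not tested.

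The mean hydropathy of residues 6 and 7 on the Kyte-Doolittle scale, on which higher is more hydrophobic, was -1.46 ± 0.0208 in CD4SP and -1.32 ± 0.0459 in CD8SP. For the other TRAV reads it was -1.39 in CD4SP and -1.22 in CD8SP, thus also lower in CD4SP. TRAV6 lay below the other TRAV reads in 6 of 6 mice in each cell type (exact permutation p = 0.03125). A TRAV6 clonotype had 1.62 ± 0.0711 reads in CD4SP and 1.91 ± 0.0549 in CD8SP, and other TRAV clonotypes had 1.99 and 2.33. CD4SP and CD8SP libraries also differed in cells sorted (1000000 and 330000) and in mean productive TRA reads (25722 and 31148). For reads per clonotype these cannot be told apart from the cell type. The family held 19.1% ± 0.398 of distinct clonotypes in CD4SP and 20.3% ± 0.533 in CD8SP. With the share of nonproductive reads given above, 7 of 11 measures gave 0.03125 in the exact permutation test over mice, adjusted 0.0491 over the panel. With each clonotype counted once, or without clonotypes of 1 read, 6 measures were at that smallest exact p. Adjustment over 11 measures takes it to 0.0573, so 0 passed. Counting each clonotype once cannot change the reads per clonotype or the share of distinct clonotypes. The differences in make-up stayed about as large. Acidic residues differed by -2.11 percentage points between CD4SP and CD8SP, by -1.94 with each clonotype counted once and by -2.19 without clonotypes of 1 read, and length by -0.234, -0.221 and -0.259 residues in the same order, each in 6 of 6 mice. The other 4 did not pass: mean J position (37.1 kb in CD4SP and 37.5 kb in CD8SP, exact p = 0.0938), TRAJ1 to TRAJ21 (33.4% and 33.3%), D and N copies (36.0% and 35.3%) and joins without added N bases (32.9% and 33.1%). Without clonotypes of 1 read the last stood at 38.3% in CD4SP and 35.6% in CD8SP, higher in 6 of 6 mice (exact p = 0.03125, adjusted 0.0573). Between KO and WT no measure passed, in a design where an exact test cannot go below 0.25 for 3 pairs or 0.1 for 3 libraries against 3.

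Set against the other TRAV reads of the same library, TRAV6 receptors differed in the measures below in both cell types. TRAV6 CDR3s held more acidic residues (4.29% against 2.99% in CD4SP, 6.40% against 4.74% in CD8SP) and fewer basic residues (9.07% against 10.4% in CD4SP, 8.19% against 9.34% in CD8SP). They were longer by 0.128 ± 0.0349 residues in CD4SP and 0.316 ± 0.0176 in CD8SP, and fewer of their joins lacked N bases (32.9% against 38.4% in CD4SP, 33.1% against 38.3% in CD8SP). TRAV6 clonotypes had 0.365 ± 0.0303 fewer reads each in CD4SP and 0.415 ± 0.0365 fewer in CD8SP. All of these had one direction in 6 of 6 mice, with an exact permutation p of 0.03125, adjusted to at most 0.0417. The first bases of CDR3 come from the V segment, by which the members were chosen. Residue make-up and length can therefore be set in part by that choice, and that part was not measured apart. The acidic and basic residues kept their direction in 6 of 6 mice with each clonotype counted once and without clonotypes of 1 read. The reads per clonotype kept theirs in 6 of 6 mice without clonotypes of 1 read. Counting each clonotype once cannot change that measure. The joins without N bases did not pass in CD4SP with each clonotype counted once, where the difference was -0.881 percentage points (exact p = 0.125) in place of -5.43, and in CD8SP it was then -1.05 in place of -5.24. The difference in length did not pass in CD4SP without clonotypes of 1 read (0.0520 ± 0.0624 residues, higher in 4 of 6 mice, exact p = 0.125), and it was 0.276 with each clonotype counted once.

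TRAJ1 to TRAJ21 took 33.4% of TRAV6 reads against 40.9% of other TRAV reads in CD4SP (exact p = 0.03125), and 33.3% against 32.9% in CD8SP (exact p = 0.375). With each clonotype counted once the CD4SP difference did not pass (33.6% against 34.5%, exact p = 0.0625, adjusted 0.0714). The NKT chain uses TRAJ18, and without it the other TRAV reads of CD4SP were at 35.8%, with the same exact p of 0.03125. The joins without N bases were then at 36.3% and acidic residues at 2.58% of the other reads in CD4SP, in the same direction.

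Most TRAV6 clonotypes were found in 1 library. Of 20622 distinct amino acid clonotypes (subgroup, TRAJ segment and CDR3 residues), 16276 (78.9%) were found in 1 library, 376 in at least 6 and 15 in all 12. With 55.1% of TRAV6 rows at 1 read, absence from a library can reflect sampling, so these counts do not show that a receptor is private. The same shares over all TRA clonotypes are not given here, so no trait of TRAV6 is read from them. Of 27 TRAV6 clonotypes that could be tested, 8 passed between CD4SP and CD8SP, 2 higher and 6 lower. Among all 337 clonotypes tested 59.6% passed (26.4% higher, 33.2% lower). The TRAV6 share called (29.6%) was lower than this background. A clonotype could pass the filter on low counts through the cell type in which it was frequent alone, so these counts only describe. Between KO and WT 0 of 27 passed in either cell type, and 0 had an unadjusted p under 0.05, with 0% of all clonotypes called by edgeR and 0 TRAV6 clonotypes by DESeq2. The CDR3 sequences below are the main nucleotide variant of each clonotype, 5′ to 3′, with added N bases in capitals, and are shown so that clonotypes on either side of the comparison can be read beside each other.
TRAV6-6 TRAJ34, 13 residues: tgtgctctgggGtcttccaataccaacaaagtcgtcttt
TRAV6-6 TRAJ22, 14 residues, A: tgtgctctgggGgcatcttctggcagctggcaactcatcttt
TRAV6-6 TRAJ22, 14 residues, B: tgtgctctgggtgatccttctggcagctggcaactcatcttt
TRAV6-7 TRAJ22, 14 residues: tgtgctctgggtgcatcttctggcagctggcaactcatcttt
TRAV6-6 TRAJ30, 13 residues: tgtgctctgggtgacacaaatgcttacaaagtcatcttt
TRAV6-7 TRAJ30, 14 residues: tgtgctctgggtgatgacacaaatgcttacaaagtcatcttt
TRAV6-6 TRAJ12, 14 residues, A: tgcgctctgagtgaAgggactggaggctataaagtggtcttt
TRAV6-6 TRAJ12, 14 residues, B: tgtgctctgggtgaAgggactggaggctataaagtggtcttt
The first TRAJ12 clonotype begins as TRAV6N-6 does and the second as TRAV6-6 does. The 13-residue TRAV6-7 TRAJ30 clonotype had the same CDR3 bases as the 13-residue TRAV6-6 TRAJ30 clonotype. Bases that could come from either segment are not counted as added.

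The clonotype most biased to CD4SP joined TRAV6-6 to TRAJ34. It had 27, 32 and 28 reads in KO CD4SP and 21, 19 and 17 in WT CD4SP libraries, against 3, 0 and 1 in KO CD8SP and 0, 11 and 2 in WT CD8SP libraries. It was plentiful in all CD4SP libraries and near 0 in all CD8SP libraries but WT replicate 2. The summed rate was 10.3-fold higher in CD4SP (exact 95% interval 6.19 to 18.1, counting error of reads only, and edgeR adjusted p = 1.64e-06). This clonotype and clonotype A of TRAV6-6 TRAJ22 could enter the test through the CD4SP libraries, where they were frequent. Their values therefore only describe. Clonotype A of TRAV6-6 TRAJ22 was 2.97-fold higher (113 reads in CD4SP and 46 in CD8SP, edgeR adjusted p = 0.00889), and without KO replicate 2 it did not pass (0.0673). The same CDR3 residues on TRAV6-7 gave 89 reads in CD4SP and 83 in CD8SP, a ratio of 1.30 that did not pass (0.693).

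Of the 6 clonotypes lower in CD4SP, 5 had at most 3 reads in any CD4SP library and entered the test through the CD8SP libraries, where they were frequent. TRAV6-6 TRAJ12 A had 0 reads in all CD4SP libraries, against 10, 11 and 0 in KO CD8SP and 11, 4 and 13 in WT CD8SP libraries. With 3 counts over the 6 CD4SP libraries as the floor it was at least 13.5-fold lower in CD4SP. TRAV6-6 TRAJ12 B had 1 read in CD4SP and 48 in CD8SP, a CD4SP over CD8SP ratio of 0.0252 (exact interval 0.000626 to 0.147). Both were at 0 in KO CD8SP replicate 3 and present in the other 5 CD8SP libraries.

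TRAV6-6 TRAJ22 B had 5 reads in CD4SP and 75 in CD8SP (ratio 0.0807, interval 0.0255 to 0.197), and the 14-residue TRAV6-7 TRAJ30 clonotype had 7 in CD4SP and 95 in CD8SP (ratio 0.0892, interval 0.0349 to 0.191). Clonotypes A and B of TRAV6-6 TRAJ22 thus lay on opposite sides, and they differ only around the join. A 14-residue TRAV6-6 TRAJ45 clonotype (3 and 45 reads) and a 13-residue TRAV6-6 TRAJ26 clonotype (20 and 86 reads) completed the 6, the second with reads in all 6 CD4SP libraries, with edgeR adjusted p of 0.0146 and 0.0239. The call was lost for TRAJ45 without WT replicate 2 (0.0755), WT replicate 3 (0.101) or KO replicate 3 (0.0961), and for TRAJ26 without KO replicate 1 (0.0848), WT replicate 2 (0.0564) or KO replicate 3 (0.0551).

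The clonotype with the highest mean share, TRAV6-6 TRAJ30 of 13 residues, was found in all 12 libraries. It had 31, 18 and 33 reads in KO CD4SP and 15, 21 and 20 in WT CD4SP libraries, against 37, 37 and 46 in KO CD8SP and 33, 27 and 32 in WT CD8SP libraries. Its shares did not differ past the threshold (ratio 0.788, counting interval 0.631 to 0.981, edgeR adjusted p = 0.385). The TRAV6-7 clonotype of the same bases was likewise in all 12 libraries, with 78 reads in CD4SP and 119 in CD8SP (ratio 0.794, adjusted p = 0.578). TRAV6-7 TRAJ7 of 13 residues, also among the 6 with the highest share, had 44 reads in CD4SP and 87 in CD8SP and did not pass (adjusted p = 0.322).

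**Figure D5:**
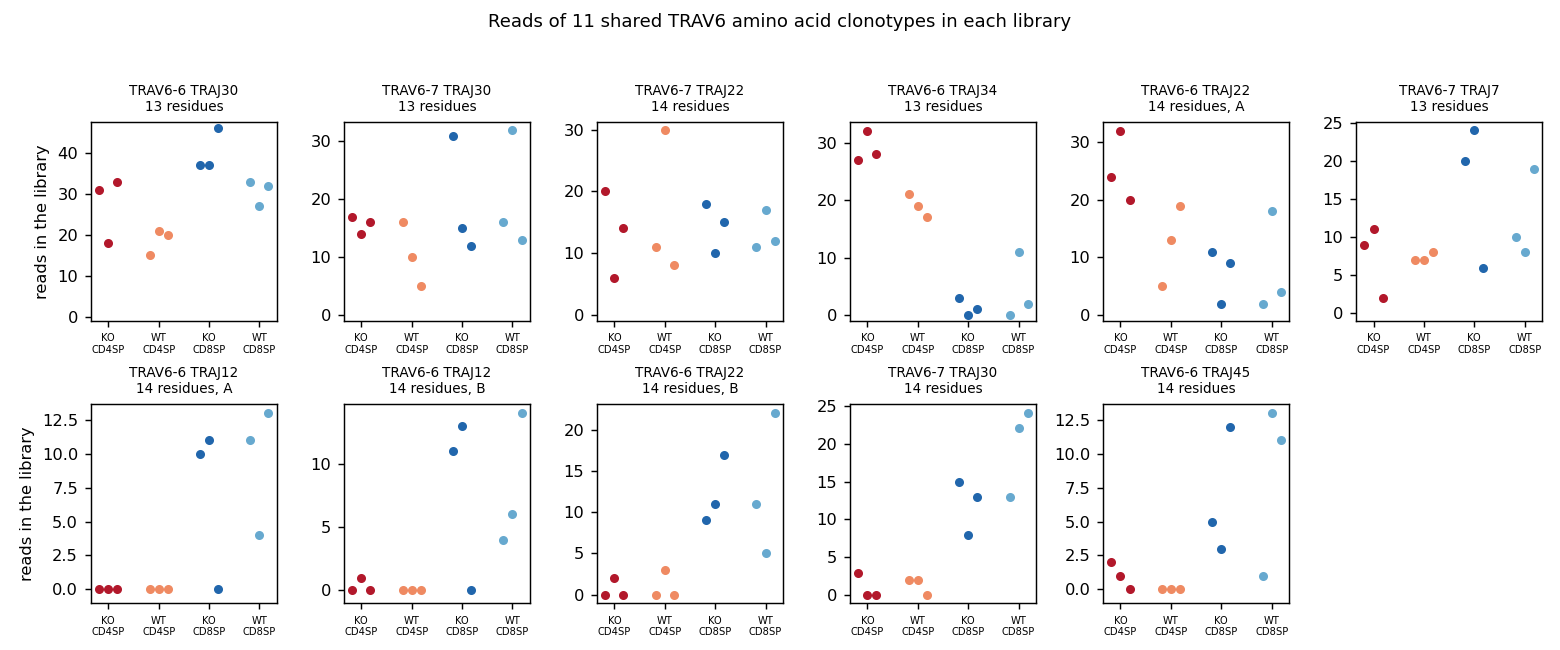
Reads per library (y axis) of 11 shared TRAV6 amino acid clonotypes in the 4 groups (x axis), each point a library. Upper row, the 6 with the highest mean share, of which TRAV6-6 TRAJ34 is nearly confined to CD4SP (144 reads in CD4SP, 17 in CD8SP); lower row, 5 clonotypes nearly confined to CD8SP, with TRAV6-6 TRAJ12 A at 0 in every CD4SP library.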

How the data were processed

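Clonotype tables of TRA and TRD chains from 12 libraries were used; TRB tables were not used here. Thymocytes were sorted, libraries made with the SMARTer Mouse TCR a/b kit and sequenced on a MiSeq, per the labels' protocols. The design text names MiXCR and VDJtools, and the submitters' processing notes name mm10; the sources used here give no MiXCR version or filters. Values as deposited are read counts per clonotype, whole numbers without molecular identifiers, per the file headers.

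Productive rows were kept, the best V and J hit taken without its allele, and reads summed per family, subgroup, copy, family-TRAJ pair and amino acid clonotype. Each whole table was tested with edgeR 4.0.16 (R 4.3.3, quasi-likelihood, filterByExpr, library size the productive TRA reads, Benjamini-Hochberg over the table, threshold 0.05). Genotype contrasts used all 12 libraries with the replicate number as a block, since the design text names pairs; CD4SP against CD8SP and the interaction had the mouse as a block. Single values were compared by exact two-sided permutation in Python 3.11.15 (scipy 1.17.1). DESeq2 1.42.0, TMM, filters, left-out libraries and the invariant NKT chain were tried as alternatives. The fits were tested on simulated data.

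Every subgroup, the copies of at least 0.05% mean share, the 5 largest TRAJ partners per direction past the threshold, the 5 TRAJ partners and 6 clonotypes of highest share, and up to 5 called clonotypes per direction were named; TRAV6-6 TRAJ26 was named after its values were seen. The members and lists were chosen with earlier results of these data known. Separate mice are named only as pairs in the design text, so p-values measure the spread between these samples.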

Additional observations from a re-analysis of the deposited data

How the results depend on the processing

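The 5 subgroup calls between CD4SP and CD8SP were 5 or 6 under all 18 alternatives, and the genotype calls of subgroups, copies, TRAJ partners and clonotypes were 0 under all of theirs. The family's small values depended on scaling. Between CD4SP and CD8SP the log2 fold change was 0.0745 with TMM factors, 0.171 with DESeq2, 0.00517 without the invariant NKT chain and -0.0742 (adjusted p = 0.140, not past the threshold) in KO mice only, and -0.113 to -0.0829 without single mice. KO over WT was 0.00488 (TMM) and 0.0889 (DESeq2) in CD4SP and 0.0321 and 0.0358 in CD8SP, with -0.0453 to 0.00344 in CD4SP and -0.0916 to -0.0388 in CD8SP without single libraries. The interaction was -0.0266 with TMM. The median of all families shifted by 0.168 with TMM and 0.265 with DESeq2 between CD4SP and CD8SP, and that of all subgroups by 0.0611 and 0.190. TRAV6-2 turned to -0.0185 in KO mice only (its copy -0.0186) and to -0.383 without clonotypes of 1 read; TRAV6-7 to 0.109 (DESeq2), 0.00364 (KO mice only) and 0.0189 (no NKT chain); TRAV6-7-DV9 to 0.0123 (TMM) and 0.0505 (DESeq2); and TRAV6D-7 to 0.0199 (TMM), 0.0588 (DESeq2) and 0.0290 (KO mice only). Called clonotypes numbered 4 without the filter on low counts, where more were tested, 2 in KO or WT mice only, with fewer samples, and 8 to 12 without single mice. Of the 7 panel measures 0 passed with each clonotype counted once and 0 without clonotypes of 1 read. In the whole panel, 6 in place of 7 were then at the smallest exact p that 6 mice allow. Without clonotypes of 1 read these 6 included joins without N bases, which was not among the 7. The differences in length, charge and hydropathy stayed about as large. Without the replicate block the family values were -0.0286 in CD4SP (adjusted p = 0.858) and -0.0681 in CD8SP (0.478), and -0.0937 for CD4SP over CD8SP (0.000879), and the block changed no genotype call. Same-numbered KO and WT libraries did not deviate together (correlations over 36 subgroups of 0.196, -0.470 and -0.215 in CD4SP, and -0.0361, -0.340 and 0.126 in CD8SP); for the CD4SP and CD8SP libraries taken as one mouse they ran from -0.0279 to 0.410. The cause of the other shifts was not tested. With 55.1% of TRAV6 rows at 1 read and at most 24 reads in a row, single clonotypes could be tested only when many libraries held them.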

Other observations

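Over the 12 libraries, the TRAV subgroups of other families whose log2 share ran most like that of the TRAV6 family were TRAV2 (Pearson's r 0.826), TRAV1 (0.803), TRAV7-3 (0.794), TRAV12-3 (0.787) and TRAV12-2 (0.783), out of 39 compared. Their mean shares ran from 0.194% (TRAV2) to 4.05% (TRAV7-3) of productive TRA reads. The libraries fall into CD4SP and CD8SP, between which the family's shares overlap, and all shares have the same library total, so these values describe likeness only.

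Of the amino acid clonotypes of TRAV6, 48 were found in all 6 CD4SP libraries and 54 in all 6 CD8SP libraries. Of the first, 1 had no read in CD8SP, and of the second, 4 had no read in CD4SP. The same counts over all TRA clonotypes are not given here, so these only describe.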
